A study of Mus musculus with 4 samples.

Results

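The clusters described here are places in the mouse genome where sequenced RNA ends were found repeatedly in the fully grown oocyte and not repeatedly in the embryo. Read starts of all 11 runs were pooled, and starts on the same chromosome and strand at most 20 bp apart were joined into 1 cluster. Chromosomes X, Y and M and an interval of 10 kb just below 40 Mb on chromosome 17 were left out. A stage was called on in a cluster when at least 2 of its runs had 2 or more lines there, a line being 1 listed read placement. Of 259863 clusters, 11691 were on at any stage, and 7343 were on in the oocyte and not on at the 2-cell, 8-cell or blastocyst stage. These 7343 are called oocyte-only clusters, and they were thus chosen by their line counts in the runs of all stages. The name stands for the rule and not for absence, since 643 of them held at least 1 line in an embryo run.

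The samples were oocytes without a time label and embryos at 48 h (2-cell), 68 h (8-cell) and 92 h (blastocyst), all labelled as F1 crosses of the strains C57BL/6J and CBA/H, with no treatment or altered allele named in any group. The oocyte sample carries the same tissue label, embryo, as the others. NanoCAGE selects RNAs by their 5′ cap and reads their first bases from small amounts of total RNA, and the lines used here are the placements deposited as repeat reads. There was 1 sample for each stage. The 2-cell sample has runs 1 and 2, and the other samples have runs 1.1, 1.2 and 2. Whether runs came from separate collections of cells is not stated, so no replicates were available and no test between stages was made. The number of oocytes or embryos per run is not given in the sources used here, and the read files hold no gene names, so oocyte marker genes were not examined.

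The fully grown mouse oocyte has largely stopped transcribing and holds a store of maternal RNA, much of which is degraded around and after fertilisation, while the embryonic genome becomes active at the 2-cell stage. Long terminal repeats of endogenous retroviruses carry their own promoters, and members of the MaLR group, such as the MT elements, are known as promoters of many oocyte transcripts. In CAGE data a promoter appears as a cluster of read starts, which may be sharp, with most starts at 1 base, or broad. Which repeat each cluster lies in was not analysed here, and positions are given in the build mm9 with the strand of the read placement, since its relation to the strand of the RNA is not stated.

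Runs held between 27069 (blastocyst run 1.2) and 1122800 (oocyte run 1.2) lines after the regions named above were left out. Oocyte runs 1.1 and 2 held 229572 and 379561 lines, the 2-cell runs 220133 and 183378, the 8-cell runs 47439, 76736 and 874399, and blastocyst runs 1.1 and 2 held 35869 and 85181. Levels are given in RPM, the number of lines per 1000000 kept lines of a run, and are called shares. A share is relative, and fewer cells and less RNA per cell cannot be told apart in it.

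Oocyte run 2 did not resemble oocyte runs 1.1 and 1.2. Oocyte-only clusters took 87.7% of the lines of run 1.1 (exact 95% Clopper-Pearson interval 87.5% to 87.8%), 84.9% of run 1.2 (84.9% to 85.0%) and 14.9% of run 2 (14.8% to 15.0%). The gap between run 2 and the other runs is far wider than counting error, and the mean of 62.5% had an SD over the runs of 41.3%. The rule used these same oocyte counts, and 6242 of the clusters entered through runs 1.1 and 1.2 only. A low share in run 2 is thus partly built into the set, and the gap is a description. Run 2 instead had 46.1% of its lines in the 202 clusters that were on both in the oocyte and at an embryo stage, against 5.15% in run 1.1 and 7.37% in run 1.2. A further 39.0% of its lines lay in clusters not on in the oocyte, against 7.16% and 7.70%. Intervals cover counting error only, as do the lower limits given later, since the files hold no molecular identifiers to tell amplified copies from separate molecules.

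The rule used the embryo runs to choose the clusters, so their low embryo shares are a description. The clusters took 0.194% and 1.22% of the lines of 2-cell runs 1 and 2. They took 0.0422%, 0.0808% and 4.76% of 8-cell runs 1.1, 1.2 and 2, and 0.184%, 0.288% and 0.475% of blastocyst runs 1.1, 1.2 and 2. 8-cell run 2 was the highest of the 8 embryo runs, and oocyte run 2 was the lowest of the oocyte runs.

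**Figure D1:**
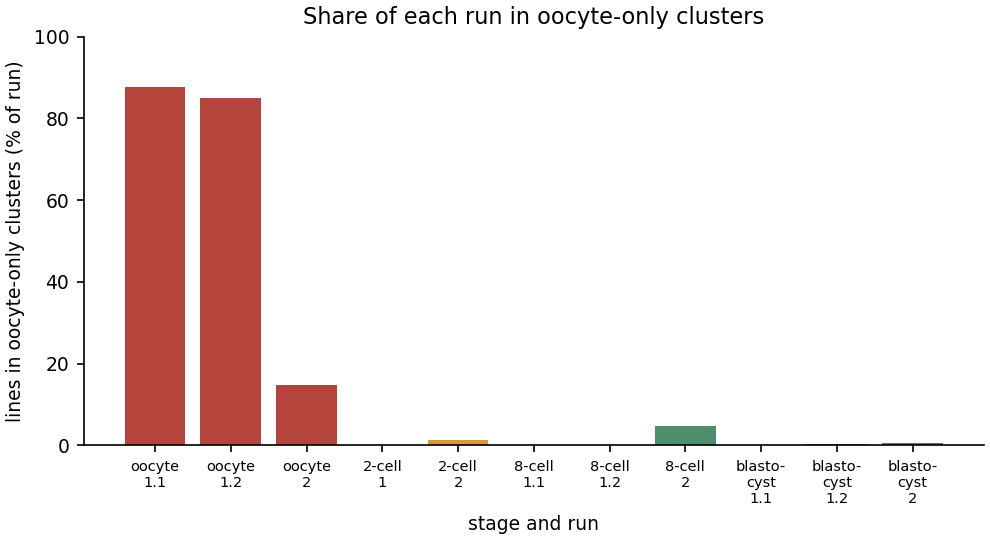
Percent of each run's kept lines (y axis, from 0) that lie in the 7343 oocyte-only clusters, with 1 bar per run, in order of stage along the x axis. Oocyte runs 1.1 and 1.2 stand at 87.7% and 84.9%, oocyte run 2 at 14.9%, and the highest embryo run, 8-cell run 2, at 4.76%.

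Of the clusters on at any stage, 62.8% were oocyte-only. They were 97.3% of the 7545 clusters on in the oocyte. By the same rule applied to each embryo stage, 53.8% of 2798 clusters on at the 2-cell stage were on there only, 46.3% of 2392 at the 8-cell stage and 58.4% of 606 in the blastocyst. The oocyte therefore had the highest percentage of clusters on at 1 stage only among the 4 stages. After each run was thinned to 27069 lines, the oocyte percentage was 96.0% and those of the embryo stages 41.1%, 56.9% and 69.8%. With runs 1.1 and 1.2 summed as 1 run, so that run 2 was needed as well, it was 86.8% for the oocyte against 61.1%, 37.1% and 29.0%.

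Most of the clusters rested on runs 1.1 and 1.2. 6242 of them (85.0%) were on in these runs only, 444 in runs 1.2 and 2, 36 in runs 1.1 and 2, and 621 (8.46%) in all 3 runs. 1101 clusters were thus on in run 2, and 6030 of the 7343 (82.1%) had no line in it. Runs 1.1 and 1.2 put 6863 clusters on whatever run 2 held. At the mean of their shares in these runs, 5492 of the 6863 would have given at least 3 lines in run 2, and 4764 of the 5492 (86.7%) gave none. Without run 1.1 the rule returned 1065 clusters, without run 1.2 657, and without run 2 6863. Several results below are therefore given both for the clusters on in runs 1.1 and 1.2 only and for the 1101 on in run 2. The others cover all oocyte-only clusters together.

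Levels repeated closely between runs 1.1 and 1.2 and loosely against run 2. Over the 6863 clusters on in runs 1.1 and 1.2, log10 shares had a Pearson r of 0.868 and a Spearman rho of 0.794, and 58.4% lay within 2-fold. Over the 621 on in all 3 runs, r was 0.916 for runs 1.1 and 1.2 but 0.316 for runs 1.1 and 2 and 0.308 for runs 1.2 and 2 (rho 0.876, 0.245 and 0.254). These are descriptions across clusters of the same libraries, given without a test, and the rule required lines in both runs. Of the 621, 189 had a run 2 share within 2-fold of the mean of runs 1.1 and 1.2, 179 were more than 2-fold higher in run 2 and 253 more than 2-fold lower. The difference exceeded 10-fold upward in 49 and downward in 94, although the median shares of 30.5, 28.5 and 21.1 RPM were close. Run 2 thus ordered even the shared clusters differently.

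**Figure D2:**
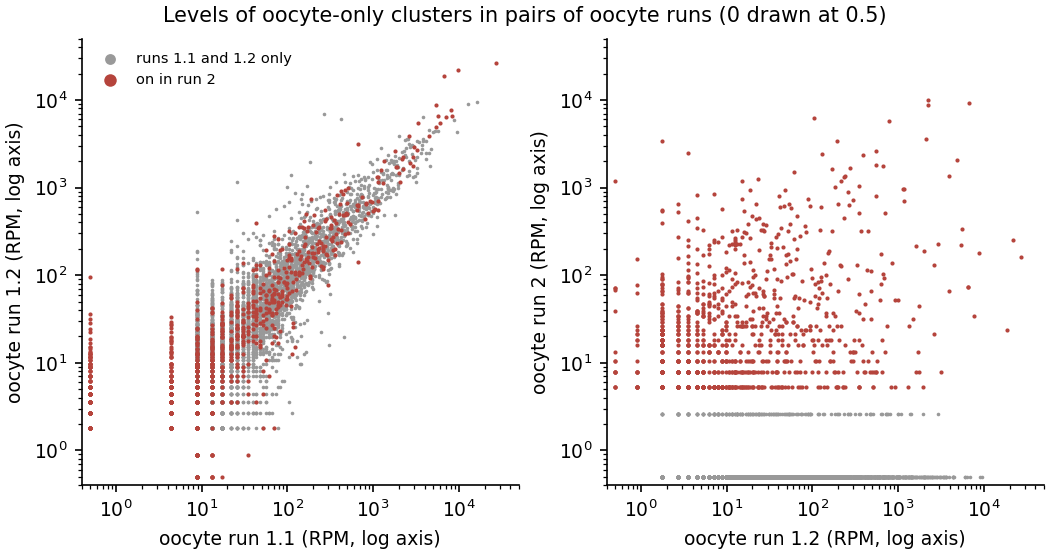
Share of each oocyte-only cluster in run 1.2 against run 1.1 (left) and in run 2 against run 1.2 (right), in RPM on log axes with a share of 0 drawn at 0.5. Grey points are clusters on in runs 1.1 and 1.2 only and red points those on in run 2; the left cloud is narrow, and on the right most grey points lie at 0 in run 2.

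The same difference appeared before the embryo stages entered the rule. Of 8492 clusters with at least 2 lines in oocyte run 1.1, 82.5% also had 2 or more in run 1.2 and 9.23% in run 2. Of 21615 in run 1.2, 32.4% had 2 or more in run 1.1 and 5.69% in run 2. Of 8214 in run 2, 9.54% had 2 or more in run 1.1 and 15.0% in run 1.2. In 8-cell run 2, the highest of the embryo runs in this, it was 7.88%. Among all lines of run 2, 37.8% lay in clusters without a line in run 1.1 or 1.2. Run 2 thus shared few clusters with the other oocyte runs, seen from either side. Sharing was also low between some embryo runs of the same stage. Of 2-cell run 1 clusters 13.1% were shared by 2-cell run 2, and of blastocyst run 1.1 clusters 6.64% by blastocyst run 2. For 8-cell run 1.1 it was higher, at 42.5% in run 1.2 and 25.6% in run 2. The 82.5% of oocyte run 1.1 clusters found in run 1.2 was the highest of these values. It is a percentage of the shallower run, and counted from the deeper run 1.2 the sharing was 32.4%.

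Levels were uneven. The mean share over the 3 oocyte runs had a median of 11.8 RPM (quartiles 5.87 and 36.6) and ran from 2.35 to 18104. 114 clusters had a mean of at least 1000 RPM and 927 at least 100, while 3284 (44.7%) were under 10. The 10 highest held 13.0% of the summed share, the 20 highest 19.2%, the 100 highest 41.4% and the 1000 highest 82.5%. A small part of the clusters therefore supplied most of the lines, and 1902 clusters rested on fewer than 10 oocyte lines.

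The 20 highest by mean share are called O1 to O20 in that order. 13 of them were on in all 3 oocyte runs and 7 had no line in run 2. Their widths ran from 5 to 229 bp, and the most used start of each, the modal start, held 13.6% to 93.6% of its oocyte lines, with a median of 48.3%. 7 lay on the plus strand. 9 of the 20 had no embryo line at all.

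O1, at chr11:88831587-88831617 on the minus strand, had 27373 RPM in oocyte run 1.1, 26778 in run 1.2 and 161 in run 2. It was the highest oocyte-only cluster of both runs 1.1 and 1.2, at close levels, and lower in run 2 by more than 100-fold. In the embryo it had 205 lines in 2-cell run 1 and none in run 2, 1111 lines in 8-cell run 2 and none in the other 8-cell runs, and 10 lines in blastocyst run 2. It counts as oocyte-only because no embryo stage had it in 2 runs, so its name rests on single embryo runs. O13, on the plus strand of the same chromosome at chr11:88828060-88828175, had 7061, 6466 and 73.8 RPM in the oocyte runs, 11 lines in 2-cell run 2 and 2 in blastocyst run 2. It lies within 10 kb of O1 and was likewise low in run 2.

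O2, at chr17:31138893-31138995 (minus strand), had 9740, 22130 and 250 RPM in oocyte runs 1.1, 1.2 and 2. Its embryo lines were 2 in 2-cell run 2 and 1 in blastocyst run 2. It had no 8-cell line, and with a floor of 3 lines over the runs of that stage its oocyte mean was at least 3564-fold higher. Such lower limits follow the depth of the embryo stage, and the mean of O2 rests mainly on runs 1.1 and 1.2.

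O3, at chr5:73607688-73607718 (plus strand), had 16283 RPM in run 1.1, 9407 in run 1.2 and none in run 2, and no line in any embryo run. It was a sharp cluster, with 93.6% of its oocyte lines at 1 base. An exact repeat is a line with the same record name, chromosome, strand and start as another line of its run. Counting exact repeats once lowered the mean share of O3 from 8563 to 4473 RPM. O12, at chr16:82562639-82562643 (minus strand), followed the same pattern, with 9426, 4336 and 0 RPM in the oocyte runs, no embryo line, and a mean that went from 4587 to 2393 when exact repeats were counted once. O6, at chr1:144525220-144525253 (minus strand), had 12872, 8949 and 0 RPM, again with no embryo line. All 3 clusters were thus high in runs 1.1 and 1.2 and absent from run 2 at a depth of 379561 lines.

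O7, at chr13:74690333-74690337 (plus strand), had 8011, 7618 and 34.3 RPM in runs 1.1, 1.2 and 2 and no embryo line. Its mean fell from 5221 to 1655 RPM when lines with a score under 20 were left out, so that most of its lines carried low scores. O3, O12 and O7 were the only clusters of the 20 whose mean moved by more than 1.5 times under these 2 settings.

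5 of the 20 had at least 1000 RPM in run 2 as well. O5, at chr1:88253536-88253587 (plus strand), had 8416, 6630 and 9153 RPM in runs 1.1, 1.2 and 2, the 3 runs lying within 1.5 times of each other. It had 40 different starts over 52 bp. In the embryo it had 9 lines in 2-cell run 2, 332 in 8-cell run 2, 6 in blastocyst run 1.2 and 1 in blastocyst run 2. The blastocyst was therefore 1 line short of being on.

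O9, at chr12:85004948-85005176 (minus strand), had 2243, 2244 and 10025 RPM in the same order and 131 starts over 229 bp. Embryo lines were 33 in 2-cell run 2, 324 in 8-cell run 2 and 1 in blastocyst run 2. O11, at chr6:47504149-47504206 (plus strand), had 2945, 2235 and 8837 RPM and only 1 embryo line, in 8-cell run 2. Both clusters were higher in run 2 than in the other oocyte runs, the opposite of O1 to O4. With no line at the 2-cell stage or in the blastocyst, the mean share of O11 was at least 628-fold and 231-fold higher than there.

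O14, at chr1:38076155-38076302 (minus strand), had 5471, 4888 and 2060 RPM in the oocyte runs but 3576 lines in 8-cell run 2, or 4090 RPM. Its other embryo lines were 41 in 2-cell run 2 and 3 in blastocyst run 2, with none in 8-cell runs 1.1 and 1.2. The oocyte mean of 4140 RPM was thus close to the share of 8-cell run 2, and 3.04-fold above the mean of the 3 8-cell run shares, of which the others were 0. O19, at chr15:80629046-80629076 (minus strand), had 4530, 3921 and 1359 RPM, with 92.4% of its lines at 1 base, and 2 embryo lines, both in blastocyst run 1.2. Among these 5, O14 had the most embryo lines, O5 and O9 had 332 and 324 in 8-cell run 2, and O11 and O19 had almost none.

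**Figure D3:**
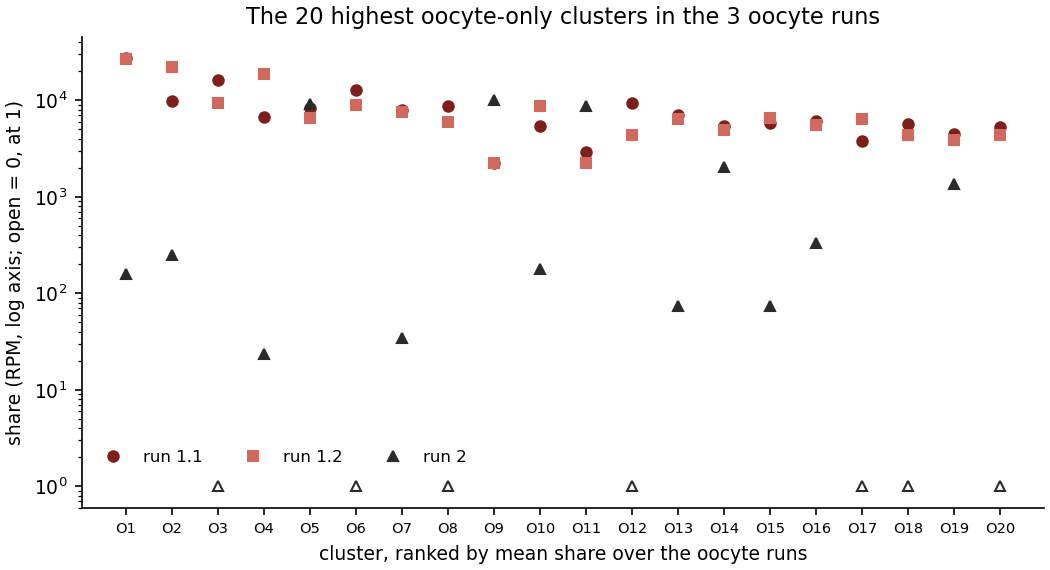
Share in RPM (log y axis) of the 20 oocyte-only clusters with the highest mean share, ranked along the x axis, with 1 symbol per oocyte run and open symbols at 1 for a share of 0. Runs 1.1 and 1.2 lie within 3-fold of each other in all 20, while run 2 is above 1000 RPM in 5 and at 0 in 7.

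Ranking by the lowest of the 3 oocyte runs, an order chosen after the values were seen, puts clusters first that every oocyte run supports. The first 10 were O5, O9, O11, chr12:85009079-85009205, O14, O19, chr1:88253138-88253227, chr9:51881277-51881357, chr14:75727486-75727839 and chr12:13809038-13809039. The cluster at chr12:85009079-85009205 (minus strand) lies within 10 kb of O9 and had 2147, 2136 and 3549 RPM in runs 1.1, 1.2 and 2. The cluster at chr9:51881277-51881357 (minus strand) had 2047, 1171 and 956 RPM and no embryo line, so it was at least 187-fold, 463-fold and 68.7-fold above the 2-cell, 8-cell and blastocyst stages. It was the only one of the 10 without any embryo line. The cluster at chr12:13809038-13809039 (minus strand) had 1154, 1169 and 698 RPM, was 2 bp wide and had 99.9% of its oocyte lines at 1 base, which was also the modal start of each oocyte run.

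O5 had close neighbours of different kinds. The cluster at chr1:88253138-88253227, also oocyte-only, had 1302, 1135 and 967 RPM in the oocyte runs, 812 lines in 8-cell run 2 and 3 in 2-cell run 2. On the other side, 50 bp from O5, the cluster at chr1:88253637-88253716 on the same strand was on in the blastocyst and is not a member. It had 815, 3338 and 5768 lines in oocyte runs 1.1, 1.2 and 2, 166 in 2-cell run 2, 4763 in 8-cell run 2, and 19, 137 and 59 in the blastocyst runs. Both clusters were high in all 3 oocyte runs, and the rule separated them by their blastocyst lines.

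The edge of the rule on the oocyte side was thinly filled. 412 clusters had exactly 2 lines in each of 2 oocyte runs and none in the third, among them chr1:10956783-10956785, chr1:19251093-19251095 and the single base chr1:30460284, all on the plus strand with 2 lines in run 1.1 and 2 in run 1.2. Just outside, 1604 clusters had 2 lines in 1 oocyte run and 1 in another, such as chr1:3704666, chr1:7036787 and chr1:7159799-7159802 on the plus strand, with 1 line in run 1.1 and 2 in run 1.2. A further view of the edge is that 22314 clusters had 2 or more lines in a single oocyte run, 163 of them 100 or more. Of these 163, 145 were in run 2, 18 in run 1.2 and 0 in run 1.1, and the highest in run 2 held 6325 lines. The rule therefore left out high clusters of run 2 that no other oocyte run shared.

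On the embryo side, 75 members had 1 line in the second-best run of an embryo stage. The first in genome order were chr1:30860869-30860931 with 3, 43 and 17 oocyte lines and 1 and 6 lines in the 2-cell runs, chr1:46132798-46132868 with 3, 8 and 17 oocyte lines, and O5. 38 clusters were left out through exactly 2 lines in that run, such as chr1:102076701-102076827 with 1, 9 and 21 oocyte lines, chr1:115800766-115800838 with 0, 2 and 11, and chr1:124253703-124253719 with 3, 2 and 21. Apart from O5, these clusters held few oocyte lines on either side of the edge.

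The clusters were narrow. Their width from the first to the last start over all runs had a median of 3 bp (quartiles 2 and 13), 1557 (21.2%) were a single base, and 58 were wider than 100 bp. The modal start held a median of 75% of a cluster's oocyte lines. The 6242 clusters on in runs 1.1 and 1.2 only had a median width of 3 bp, a modal start with 78.6% of lines and 23.2% of single-base clusters. The 1101 on in run 2 had a median of 14 bp (quartiles 4 and 34) and 56.3% at the modal start, and were closer in this to the 202 clusters on in the oocyte and an embryo stage, at 22.5 bp and 55.6%. Clusters on at the 2-cell stage and not in the oocyte, 2655 in number, had a median width of 5 bp over all runs. Their modal start held 64.7% of their 2-cell lines.

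Width grows with the number of lines and with the number of runs pooled. It was therefore also taken over the starts of oocyte run 1.2 only, in classes of equal line number. The cluster borders were still those drawn from the pooled starts of all runs. Among clusters with 10 to 99 lines in run 1.2, the median width was 3 bp in the 2946 on in runs 1.1 and 1.2 only, 10 bp in the 368 on in run 2 and 13 bp in 71 on in the oocyte and an embryo stage. With 100 to under 1000 lines the medians were 5, 23.5 and 32 bp (888, 150 and 33 clusters). With 1000 or more they were 24, 55 and 47.5 bp, over 141, 36 and 16 clusters. By these starts, clusters on in run 2 had a higher median width in each class than those on in runs 1.1 and 1.2 only. The quartiles overlapped widely. Starts of other runs, run 2 among them, can join run 1.2 starts more than 20 bp apart into 1 cluster. A greater width of clusters on in run 2 can thus be partly built in by the joining. Run 1.2 was not clustered alone, so this was not tested. The modal start held 75.7%, 62.9% and 59.1% of lines in the lowest class in the same order, and 74.9%, 56.1% and 58.5% in the highest.

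**Figure D4:**
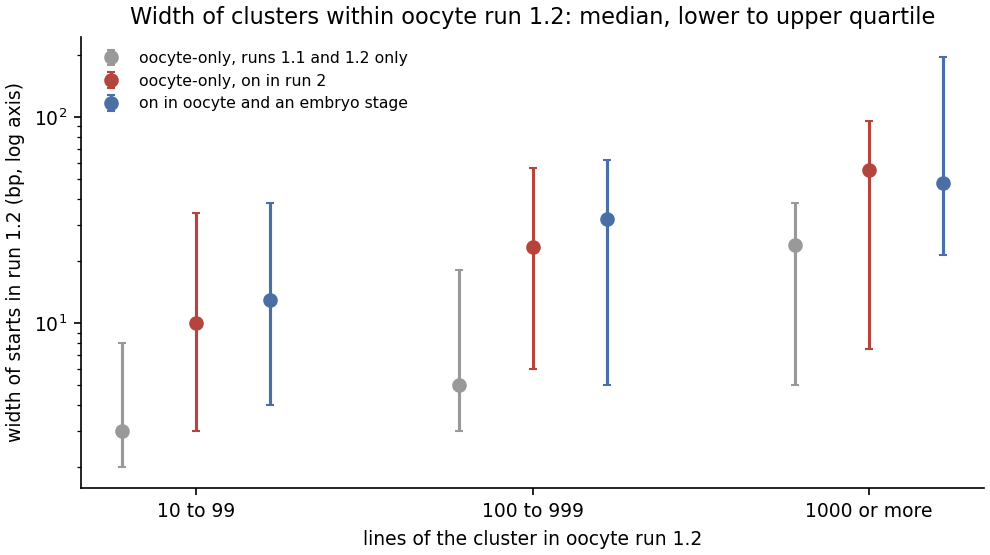
Median width of read starts in oocyte run 1.2 (points, bp on a log y axis) with lower and upper quartiles (bars), by the number of lines of the cluster in that run along the x axis. Cluster borders were drawn from the pooled starts of all runs. In each class the clusters on in runs 1.1 and 1.2 only (grey) have the lowest median, at 3, 5 and 24 bp, against 10, 23.5 and 55 bp for those on in run 2 (red).

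The widest oocyte-only cluster was chr14:75727486-75727839 on the minus strand, 354 bp with 156 different starts, and 745, 779 and 5796 RPM in oocyte runs 1.1, 1.2 and 2. The third widest, chr14:75727467-75727701 with 235 bp, lies over it on the plus strand and had 10, 42 and 103 oocyte lines. The second, chr13:100204078-100204319 on the minus strand with 242 bp, had 6, 23 and 36 oocyte lines. All 3 were broad on both counts, with 9.23% to 11.7% of lines at the modal start, and all 3 had their highest share in run 2.

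The position of the modal start was not used by the rule. Among clusters with at least 10 lines in both runs, oocyte runs 1.1 and 1.2 had the same modal base in 1807 of 2030 (89.0%), and a modal base within 5 bp in 97.3%. Runs 1.1 and 2 had the same base in 67 of 162 (41.4%) and runs 1.2 and 2 in 116 of 277 (41.9%), with 57.8% of the latter within 5 bp. Among clusters on in all 3 runs, runs 1.1 and 1.2 had the same base in 237 of 275 (86.2%). For runs 1.1 and 2 it was 67 of 162 (41.4%) there, and for runs 1.2 and 2 103 of 249 (41.4%). Modal starts thus often differed between run 2 and the others in clusters with at least 10 lines in both. In clusters on in the oocyte and an embryo stage, the corresponding values were 63 of 74 (85.1%), 30 of 53 (56.6%) and 42 of 89 (47.2%).

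In oocyte-only clusters with at least 10 lines in both runs compared, the modal start of an embryo run often differed from that of an oocyte run. Oocyte run 1.2 and 8-cell run 2 had the same modal start in 35 of 111 clusters (31.5%), and oocyte run 1.2 and 2-cell run 2 in 12 of 47 (25.5%). In clusters on in the oocyte and an embryo stage the values for oocyte run 1.2 were 53 of 99 (53.5%) for 8-cell run 2 and 36 of 70 (51.4%) for 2-cell run 2. Oocyte run 2 and 8-cell run 2 had the same modal start in 24 of 69 oocyte-only clusters (34.8%), against 48 of 121 (39.7%) of those on in the oocyte and an embryo stage. Oocyte run 2 and 2-cell run 2 had it in 4 of 22 oocyte-only clusters (18.2%). Oocyte runs 1.2 and 2 themselves had it in 41.9%. O9 is an example, with its modal start at base 85004994 in oocyte runs 1.1 and 1.2, 85004958 in oocyte run 2, 85004969 in 2-cell run 2 and 85005039 in 8-cell run 2. At O14 the modal start was 38076289 in oocyte runs 1.1 and 1.2, 38076287 in run 2 and 38076174 in 8-cell run 2. At O10, chr6:87054757-87054822 on the minus strand, all 3 oocyte runs and 8-cell run 2 shared base 87054764.

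Across the embryo runs, 6700 of the 7343 clusters (91.2%) had no line at all. That share was 95.5% among clusters on in runs 1.1 and 1.2 only and 67.4% among those on in run 2. No line was found at the 2-cell stage in 7041 clusters (95.9%), at the 8-cell stage in 6906 (94.0%) and in the blastocyst in 7179 (97.8%). Of the 643 with an embryo line, 432 had lines in 1 run only and 87 in 3 or more. 41584 of the 44884 embryo lines (92.6%) came from 8-cell run 2, the deepest embryo run.

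Depth sets what the embryo runs could show, and the rule itself kept out clusters with lines in several embryo runs, so the counts that follow are descriptions. The floor of 3 lines corresponds to 7.43 RPM over both 2-cell runs, 3.00 over the 8-cell runs and 20.3 over the blastocyst runs. It pools the runs of a stage, and 874399 of the 998574 8-cell lines were in run 2. To be on, a stage needed 2 lines in each of 2 runs, so a cluster above the floor could still fall short of on in the shallower runs. At their oocyte share, 4868 clusters would have given at least 3 lines at the 2-cell stage, and 4614 of these (94.8%) had none. At the 8-cell stage this was 6861 of 7283 (94.2%) and in the blastocyst 2579 of 2667 (96.7%). For the remaining 4676 clusters a blastocyst level equal to that of the oocyte was not detectable at this depth. Among clusters on in oocyte run 2, 647 of 793 (81.6%), 778 of 1041 (74.7%) and 430 of 498 (86.3%) had none at the same 3 stages.

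The oocyte mean was at least 2-fold above the mean of the 2-cell run shares, or above the floor where that was higher, in 3199 clusters, likewise for the 8-cell stage in 5408 and for the blastocyst in 1716. It was at least 100-fold above in 142, 369 and 44. In 2507, 107 and 4683 clusters it was below the higher of the stage mean and the floor. Only 60 clusters had an oocyte mean under the 8-cell floor itself, so the rest of the 107 lay below the 8-cell mean. Asking in addition that every oocyte run lie above every run of the embryo stage left 560 of 7343 clusters for the 2-cell stage (7.63%), 816 for the 8-cell stage (11.1%) and 364 for the blastocyst (4.96%). Over all clusters on at any stage these calls were 5%, 7.18% and 3.28%. The rule used the same contrast, so nothing is read from the excess.

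The 3 oocyte-only clusters with the most embryo lines show how a single run can carry them. The cluster at chr1:95342205-95342209 (plus strand) had 34, 952 and 0 lines in oocyte runs 1.1, 1.2 and 2 but 9040 in 8-cell run 2 and 2 in 2-cell run 2. Its modal start was base 95342205 in both oocyte runs and 95342209 in 8-cell run 2. The cluster at chr10:72137025-72137125 (minus strand) had 2, 9 and 0 oocyte lines, 4263 in 8-cell run 2 and 1 in blastocyst run 1.1. The third was O14. In the first 2 the share of 8-cell run 2, at 10339 and 4875 RPM, was above that of every oocyte run, so they are oocyte-only by the rule and not by level. In all, 335 oocyte-only clusters had 2 or more lines in a single 8-cell run, 211 in a single 2-cell run and 68 in a single blastocyst run.

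Many of the clusters came as pairs on opposite strands. 1916 of the 7343 (26.1%) overlapped an oocyte-only cluster on the other strand, counting the 25 bases of the reads, in 1046 pairs. The percentage was 23.4% among clusters on in runs 1.1 and 1.2 only and 23.1% among those on in run 2, with pairs counted inside each set. It was 9.90% of the 202 clusters on in the oocyte and an embryo stage and 3.99% of the 2655 on at the 2-cell stage and not in the oocyte. These sets differ in size and depth, and the difference was not tested.

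The distance between the modal starts of a pair peaked at a pair of values. In 258 pairs (24.7%) the minus-strand start lay 1 bp above the plus-strand start, so that the reads pointed away from each other with their first bases overlapping. In 217 pairs (20.7%) it lay 24 to 26 bp above, which is about the length of a read, so that both reads covered nearly the same bases from opposite ends. Among pairs on in runs 1.1 and 1.2 only, 224 of 793 were at 1 bp and 183 at 24 to 26 bp. In the 135 pairs on in run 2 these were 14 and 21, and in the 53 pairs of clusters on at the 2-cell stage and not in the oocyte they were 0 and 20. The larger cluster of a pair had a median of 5.85 times the lines of the smaller, and 430 pairs (41.1%) differed by 10-fold or more.

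**Figure D5:**
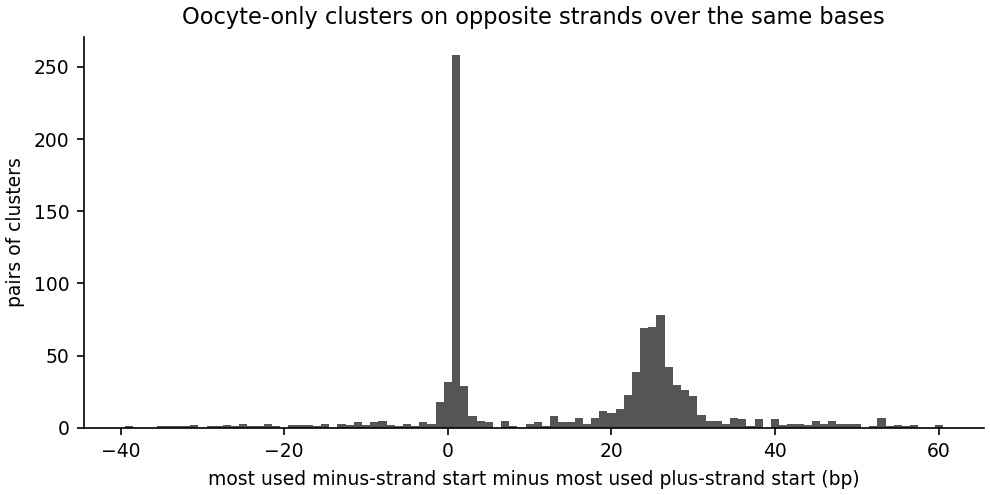
Number of opposite-strand pairs of oocyte-only clusters (y axis) by the distance in bp from the most used plus-strand start to the most used minus-strand start (x axis, 1 bp bins); 50 of the 1046 pairs lie outside the range shown. A narrow peak holds 258 pairs at 1 bp, and a broader one lies around 24 to 26 bp, where 217 pairs fall.

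O20, at chr11:38306168-38306192 on the plus strand, and its partner chr11:38306171-38306201 on the minus strand were nearly equal, with 1215, 4949 and 0 lines against 1141, 4851 and 0 in oocyte runs 1.1, 1.2 and 2. Their modal starts were 1 bp apart. The partner of O2, chr17:31138880-31138972 on the plus strand, also had its modal start at 1 bp distance, with 459, 1658 and 12 lines against 2236, 24847 and 95. The clusters chr4:14617822-14617825 (plus) and chr4:14617845-14617849 (minus) were 24 bp apart, with 140, 1336 and 0 against 324, 2326 and 0 lines. O1 had a small partner at chr11:88831563-88831593, with 44, 271 and 0 lines against 6284, 30066 and 61. In the O20 and chromosome 4 pairs both partners were thus absent from run 2, and of these 4 pairs only that of O20 was nearly balanced.

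Line by line, 25.8% of the oocyte lines in these clusters had a line on the other strand over exactly the same 25 bases in the same run. The percentage was 11.8% in run 1.1, 28.4% in run 1.2 and 31.5% in run 2. It was 45.4% in clusters that were the smaller of each of their pairs and 10.1% in the 5427 clusters in no pair. Among clusters on in runs 1.1 and 1.2 only it was 9.29% in run 1.1 and 21.4% in run 1.2. Among those on in run 2 it was 20.6% and 47.8% in the same runs. In clusters on in the oocyte and an embryo stage it was 15.7%, 57.2% and 42.0% in the 3 oocyte runs. Lines on both strands over the same bases were therefore found in clusters of either kind. If overlapping clusters on opposite strands are counted once, an alternative chosen after the pairs were seen, 6301 remain.

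Oocyte-only clusters also lay near each other. 3962 stood alone, with no other within 10 kb, and 3381 (46.0%) formed 1193 groups of 2 or more, of which 109 had 5 or more and held 751 clusters. The median distance to the nearest other oocyte-only cluster on either strand was 22068 bp, and 33.8% had one within 100 bp, opposite-strand pairs included. Clusters on at the 2-cell stage and not in the oocyte, fewer in number, had a median of 287246 bp and 4.14% within 100 bp. Only 109 oocyte-only clusters (1.48%) lay within 100 bp of a cluster on in the oocyte and an embryo stage, and 141 (1.92%) within 1 kb of one on at the 2-cell stage. Numbers of clusters set such distances in part, and this was not tested.

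The largest group, chr10:82828882-82838540, held 22 clusters, 6 on the plus and 16 on the minus strand, with 658, 2245 and 34 lines in oocyte runs 1.1, 1.2 and 2 and 29 embryo lines. The group at chr6:87054736-87062213 held 21 clusters, 10 of them on the plus strand, and 59.4% of its share lay in O10 alone. Its oocyte lines were 2099, 16518 and 98. Groups were therefore uneven inside, and in both of these run 2 held few lines.

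Of the other large groups, chr7:54223102-54232480 held 15 clusters with 2644, 10147 and 109 oocyte lines, and its largest cluster took 30.7% of the group's share. The group at chr7:24995542-24999582 held 14 clusters, 80.8% of whose share lay in O15, with 1611, 9238 and 28 oocyte lines and no embryo line at all. The group at chr17:65997428-65998232 held 12 clusters within 805 bp, with 984, 6966 and 14 oocyte lines and 2 embryo lines. All 5 groups had clusters on both strands, and run 2 held the fewest lines in each.

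The clusters were spread over all 19 autosomes, from 554 on chromosome 1 (7.54%) to 191 on chromosome 19 (2.60%), and 3725 (50.7%) lay on the plus strand. Clusters on at the 2-cell stage and not in the oocyte had 7.72% and 2.56% on the same chromosomes. The spread over these chromosomes was thus similar in both sets.

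The placement scores of lines in oocyte-only clusters had medians of 53, 55 and 34 in oocyte runs 1.1, 1.2 and 2, against 52, 53 and 36 over all lines of these runs. In clusters on in the oocyte and an embryo stage the median was 30 in each run. Run 2 thus scored lowest in the oocyte-only clusters, as it did over all oocyte lines. Exact repeats of a line within a run made up 4.80%, 3.92% and 1.26% of the clusters' lines, against 0.279%, 0.242% and 1.36% in clusters on in the oocyte and an embryo stage. With exact repeats counted once 7059 clusters were oocyte-only, and with a score of at least 20 there were 5804, so neither setting removed most of them.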

How the data were processed

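NanoCAGE read placements of 4 mouse samples, each with 2 or 3 runs, were used, and p-values were not computed. In the read files deposited by the authors, every line is a 25-base placement with chromosome, strand and a score between 1 and 99, of which the scale is not stated. The submitters' processing notes name mm9 as the build and list CASAVA without saying what it did. How reads were aligned, and how a read with more than one placement was handled, is not given in the sources used here. A deposited table of counts per repeat family has no positions and was not used.

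Clusters, the on rule and shares were computed with Python 3.11.15, numpy 2.4.6, pandas 2.3.3 and scipy 1.17.1, and figures drawn with matplotlib 3.10.9. Shares were averaged over a stage's runs, each weighted alike. The floor of 3 lines was taken over the pooled lines of a stage and replaced lower embryo means in folds. Modal starts were compared with at least 10 lines in both runs. Neighbours at most 10 kb apart formed a group. On simulated clusters that were far apart and narrower than the joining distance, the clustering returned every cluster drawn. Close or wide clusters were not simulated, so the outcome does not cover them.

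The members, lists and rules were chosen with earlier results of these data known. Clusters named are the 20 highest by mean share, the 3 with the most embryo lines, 3 on each side of each limit of the rule, the 5 largest groups and the 3 widest. Clusters ranked by their lowest oocyte run, the neighbours of O5 and the opposite-strand pairs were added after values were seen. The genome at hand is of another build than mm9, so no sequence or gene annotation was used. Alternatives changed the joining distance, the line minimum, depth, embryo limits, repeats, scores and regions left out, and left out each run.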

Additional observations from a re-analysis of the deposited data

How the results depend on the processing

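The 7343 oocyte-only clusters became 3526 with 5 lines per run, 1280 with runs thinned, 1188 with a share limit of 73.9 RPM, and 1159 with runs 1.1 and 1.2 summed (1100 of them members), and 657 to 7369 with single runs left out. Their part of oocyte-on clusters (97.3%) was 96.0% thinned, 96.4% by share, 91.0% with 1 embryo run enough, 88.8% with no embryo line allowed, 98.0% with scores of at least 20, 86.8% summed and 83.8% to 98.0% with runs left out. Their share of oocyte lines (62.5%) was 53.5% thinned, 52.8% by share and 54.4% with the left-out regions kept. It was 49.0% with 1 embryo run enough, 46.6% with no embryo line, 19.1% summed and 16.1% to 86.1% with runs left out. The part on in all 3 runs (8.46%) was 9.23% when joined up to 50 bp, 11.8% and 14.9% with 3 and 5 lines, 6.33% thinned, 16.6% by share, 6.50% with 1 embryo run enough, 6.12% with no embryo line, 53.9% summed, and 7.65% to 8.59% with embryo runs left out; with 2 oocyte runs it has no value. Median width (3 bp) was 5 bp at 50 bp and with 5 lines, 6 bp thinned and by share, 14 bp summed, and 3 to 17 bp with runs left out. The modal percent (75%) was 79.0% joined up to 5 bp, 71.4% up to 50 bp, 73.7% and 72.6% with 3 and 5 lines, 71.5% by share, 76.6% and 76.9% under the 2 embryo limits, 72.1% by score, 56.3% summed, and 56.3% to 77.1% with runs left out. Clusters without an embryo line (91.2%) were 92.2% and 90.5% at 5 and 50 bp, 89.6% and 88.0% with 3 and 5 lines, 86.3% by share, 97.6% and 100% under the embryo limits, 67.0% summed, and 66.2% to 94.3% with runs left out. Clusters within 10 kb of another (46.0%) were 49.7% and 43.3% at 5 and 50 bp, 42.4% and 38.5% with 3 and 5 lines, 25% thinned, 24.7% by share, 43.5% and 43.0% under the embryo limits, 50.1% by score, 43.1% summed, and 36.5% to 46.2% with runs left out. Causes were not tested. Summing runs was chosen after seeing the data. No paired analysis was possible because no test was made and run numbers are not stated to pair samples.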
